A study of Rattus norvegicus with 45 samples.

Results

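Heroin and saline rats that carried the H3.3Q5A vector in the ventral tegmental area (VTA) were compared, with 8 heroin and 7 saline rats out of the 45 libraries of the study. All were male, wild-type Sprague-Dawley rats, and the labels give no age. They had 10 d of heroin or saline self-administration, were infused with the virus on day 11 and were killed after 30 d of abstinence, so that both groups share the mutant histone and differ in the drug. GFP carried by the vector guided the punches that were taken for RNA, and each rat gave a single polyA-selected library. The sources name the vector in different ways, as adeno-associated in the methods and as lentiviral in the deposited design, and neither gives a promoter that would limit it to a cell type. The substitution removes every modification of the glutamine, not only the one with dopamine. Genes were kept when they lay above the lowest deposited value in at least 7 of these 15 libraries, which left 20427 of 32883 genes. One more saline library, named for H3.3Q5A by its title but for H3.3 WT by its treatment label, was left out.

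The VTA holds dopamine neurons that project to the reward system, mixed with GABA and glutamate neurons and with glia of the fiber tracts that cross it. Dopamine can be attached to a glutamine in the tail of histone H3 by the transglutaminase Tgm2, a mark called H3Q5dop. In H3.3Q5A that glutamine is replaced by alanine, which cannot carry the mark, and the mutant histone competes with the endogenous histone for a place in the nucleosome. The comparison asks which heroin differences in gene expression are present in abstinent rats whose VTA expresses this mutant.

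The deposited values were counts after a variance-stabilizing transformation, a log2-like scale on which the lowest value stands for no reads. Undoing the transformation gave back the reads on genes, from 39805541 to 58316382 (median 45039583) in heroin and from 27281902 to 68069513 (median 34513499) in saline H3.3Q5A rats (exact permutation p = 0.30, two-sided). The 100 most abundant genes of a library took 15.7% to 17.3% of the reads (median 16.2%) in heroin and 16.5% to 17.9% (median 17.1%) in saline rats. This difference of -0.868 percentage points had an exact two-sided permutation p of 0.00653 (0.0196 after Benjamini-Hochberg adjustment over 3 library measures), and its part in the results below was not tested. Heroin rat 21 and saline rat 28 stood apart from their groups. On the first principal component of the 2000 most variable genes, which held 42.6% of their variance, heroin rat 21 lay at -19.9 and the other 7 heroin rats from -1.87 to 24.7, while saline rat 28 lay at -21.8 and the other 6 saline rats from -11.4 to -1.52. The dopamine neuron markers Th, Slc6a3 and Slc18a2, the opioid genes Oprm1, Penk and Pdyn and the H3.3 genes H3f3a and H3f3b could not be named in these values, so neither the tissue nor the vector was checked against its defining genes.

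Heroin was followed in H3.3Q5A rats by modest differences. Single named genes of transmitter release (Syt2), membrane excitability (Hcn2) and mitochondrial respiration (Cox5a) fell. Olig1 of the oligodendrocyte lineage, chosen after its values had been seen, fell too. Single regulators of chromatin (Kdm5b) and RNA (Cnot6) rose. Of 20427 genes, 218 (1.07%) were differentially expressed (DEx), which means an adjusted p under 0.05 (limma, Benjamini-Hochberg over all genes tested) with a log2 fold change larger than 0.2 in size. There were 90 upregulated (0.441%) and 128 downregulated (0.627%) DEx genes. Log2 fold changes, heroin minus saline, had a median of 0.36 (0.20 to 1.02) among the former and of -0.35 (-1.07 to -0.20) among the latter, against 0.01 over all genes tested. Adjusted p-values of DEx genes ran from 0.0292 to 0.0494, so all lay close under the threshold. Without it, 4358 genes (21.3%) had an unadjusted p under 0.05, 2243 higher and 2115 lower after heroin. The values of all heroin rats lay outside those of all saline rats in 95 genes (0.465%), of which 41 were DEx genes. The count rested on single rats. It was 1533 without heroin rat 21, 475 without heroin rat 40, 325 without saline rat 46, 120 without heroin rat 43, 102 without heroin rat 24, 66 without saline rat 30, 12 without heroin rat 26 or saline rat 32, 13 without saline rat 47, 3 without saline rat 28 and 0 without heroin rat 25, 37 or 39 or saline rat 31 or 33, with 3271 to 4167 genes at an unadjusted p under 0.05 in the latter 5 fits. With the log2 read total as a covariate it was also 0, with 3990 genes at an unadjusted p under 0.05.

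**Figure D1:**
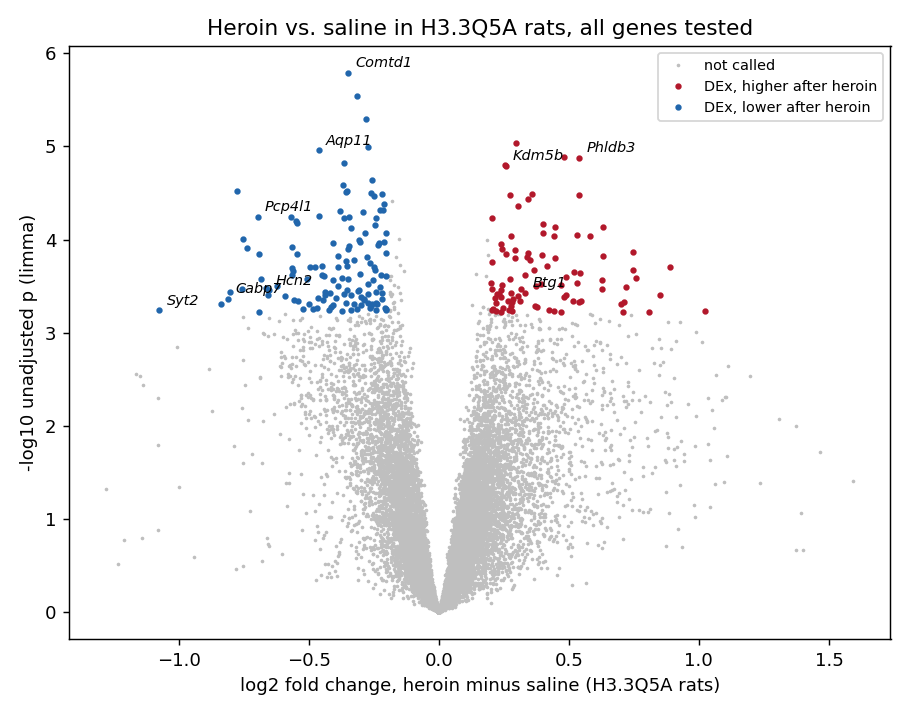
Each point is 1 of the 20427 genes tested, with the log2 fold change of heroin minus saline H3.3Q5A rats on the x axis and the -log10 of the unadjusted limma p on the y axis. The 90 upregulated (red) and 128 downregulated (blue) DEx genes lie between log2 fold changes of -1.07 and 1.02, and some genes with larger changes were not called.

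The deposited values carry Ensembl identifiers, and 1997 of the genes tested could be named from an annotation that orders its genes by a difference between saline groups, so they are no random draw. Among them were 46 DEx genes, 8 upregulated and 38 downregulated, against 90 and 128 among all DEx genes. Genes that fell are thus overrepresented among the named DEx genes. Over all named genes the median log2 fold change was -0.01. All results for named genes below come from these. Of the DEx genes without a name, ENSRNOG00000009195 (0.30) and ENSRNOG00000059890 (0.48) had the lowest adjusted p among those that rose and ENSRNOG00000006226 (-0.32) and ENSRNOG00000016874 (-0.28) among those that fell, as log2 fold changes.

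Syt2, a calcium sensor that triggers fast transmitter release from synaptic vesicles, showed the lowest log2 fold change of the DEx genes. It lies on chromosome 13 of rn6 from 51534024 to 51578052 (plus strand). Its deposited value ran from 12.5 to 13.2 (median 12.7) in saline and from 10.9 to 13.1 (median 11.6) in heroin rats. In 7 of 8 heroin rats it lay below every saline rat, and heroin rat 21, at 13.1, lay within the saline range. Syt2 fell by 1.07 on the log2 scale (standard error 0.288, adjusted p = 0.0490 by limma). The difference ranged from -1.27 to -0.96 when single rats were left out and was -1.27 without heroin rat 21. Adjusted p-values in these fits ran from 0.00825 to 0.142 by limma, and the call was lost in 13 of 15. Syt3, another synaptotagmin, fell by 0.35 on the log2 scale, with all heroin rats (11.5 to 11.8) at or below the lowest saline rat (11.8 to 12.2). Cplx1, which encodes complexin and clamps the release machinery, was not a DEx gene at -0.75 (adjusted p = 0.0625 by limma), and neither were Syn1 (-0.18) and Syt4 (0.05). Of the 27 genes listed for synaptic vesicles these 4 (Syt2, Cplx1, Syn1 and Syt4) could be named, with a median of -0.47 on the log2 scale. Summed over these 4 genes, RPM (reads scaled to a common library total) were 1199.6 to 1919 (median 1445) in heroin and 1657 to 2127 (median 1845) in saline rats. In RNA from whole punches, fewer cells of a type and less RNA per cell cannot be told apart.

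Hcn2, Atp2b2 and Cabp7, single genes of membrane excitability and calcium handling, fell after heroin, and so did Pcp4l1. Hcn2 (chromosome 7 of rn6, 12851738 to 12874215, minus strand) encodes a channel that opens on hyperpolarization and paces firing. Its value was 13.2 to 13.8 (median 13.3) in saline and 12.1 to 13.4 (median 12.6) in heroin rats, with 7 of 8 heroin rats below every saline rat and heroin rat 21 inside the saline range. Hcn2 fell by 0.65 on the log2 scale (standard error 0.168, adjusted p = 0.0477 by limma), and the difference was -0.76 without heroin rat 21. The call was lost in 12 of the 15 fits without a rat. Atp2b2 (chromosome 4 of rn6, 145703045 to 146016325, minus strand) encodes a plasma membrane pump that extrudes calcium. It was at 14.5 to 14.8 (median 14.7) in saline and 13.9 to 14.6 (median 14.3) in heroin rats. Atp2b2 fell by 0.41 (standard error 0.108, adjusted p = 0.0489 by limma). Again only heroin rat 21 reached the saline range. Cabp7, a neuronal calcium-binding protein, fell by 0.81 (standard error 0.212), from 11.2 to 12.01 (median 11.5) in saline to 10.02 to 11.4 (median 10.7) in heroin rats, where rats 21 and 40 overlapped the saline range. Pcp4l1, related to a calmodulin-binding peptide of Purkinje cells, fell by 0.70 (adjusted p = 0.0327 by limma), with heroin rat 21 at 11.6 and the other heroin rats from 10.6 to 11.0. Of 32 genes listed as action potential channels 3 could be named, of which Hcn2 was the only DEx gene, and the sodium channel Scn3a was at 0.20. Other downregulated genes with neuronal roles were Slc6a9, a glycine transporter (-0.39), Elavl3, a neuronal RNA-binding protein (-0.27), and Scrt2, a transcriptional repressor of neurons (-0.57). All heroin rats lay below all saline rats for Slc6a9, at 13.4 to 13.9 against 13.9 to 14.1. Syt3, Slc6a9, Elavl3 and Scrt2 were picked after their values had been seen.

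**Figure D2:**
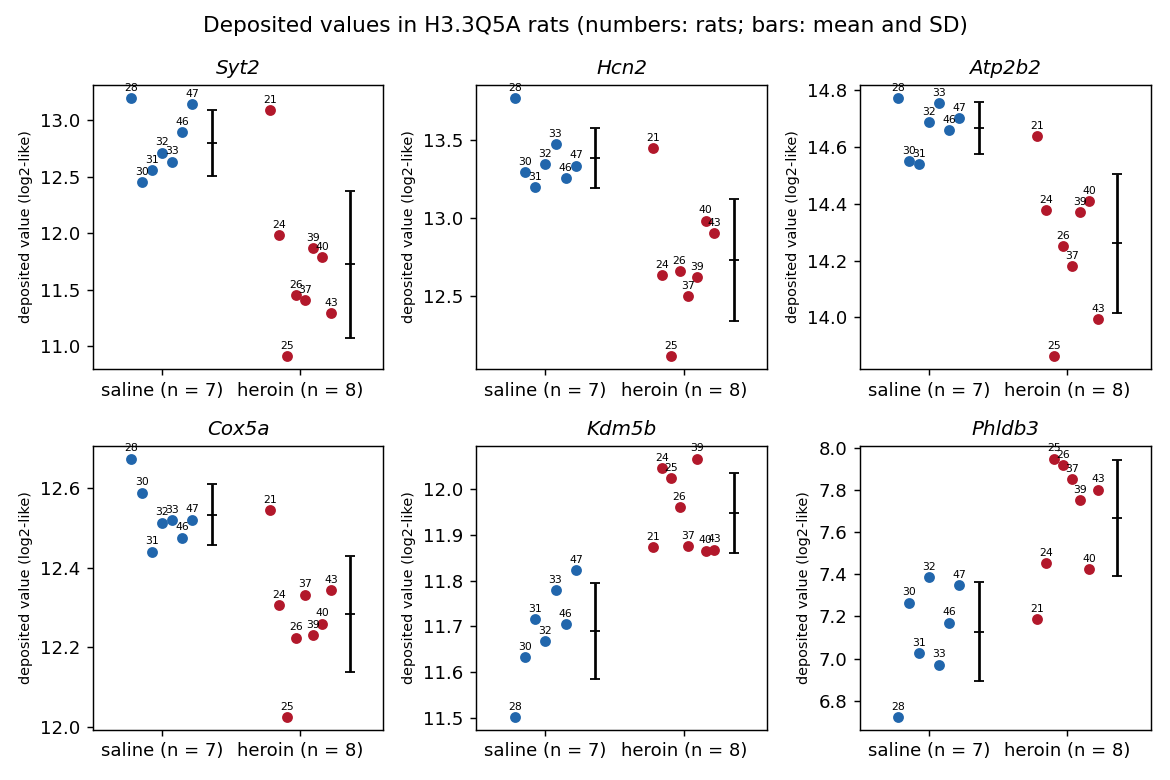
Deposited values (log2-like) of 6 DEx genes in the 7 saline (blue) and 8 heroin (red) H3.3Q5A rats, 1 point and number per rat, with black bars for the mean and SD. Heroin rat 21 sits with the saline rats for Syt2, Hcn2, Atp2b2 and Cox5a, whereas all heroin rats lie above all saline rats for Kdm5b.

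Several subunits of the mitochondrial respiratory chain fell by small amounts. Cox5a, a nuclear-encoded subunit of cytochrome c oxidase, lies on chromosome 8 of rn6 from 62298357 to 62309765 (plus strand). Its value was 12.4 to 12.7 (median 12.5) in saline and 12.03 to 12.5 (median 12.3) in heroin rats, with only heroin rat 21 in the saline range. Cox5a fell by 0.25 on the log2 scale (standard error 0.0611, adjusted p = 0.0423 by limma). Cox6a1, of the same enzyme, fell by 0.29, and all heroin rats (13.2 to 13.7) lay at or below the lowest saline rat (13.7 to 13.9). Cox6b1 (-0.25) and Ndufb7 (-0.24), the latter a subunit of complex I, fell as well. A second gene model named Cox6b1, on chromosome 2 from 211337270 to 211337531, was at -0.22, and its reads cannot be separated with certainty from those of the gene on chromosome 1. A list of 17 gene models with respiratory chain or ATP synthase symbols, written after values had been seen, held these 5 DEx genes and none that rose, and 16 of the 17 were lower after heroin. Over all named genes 46 of 1997 were DEx genes and 1032 (51.7%) were lower. The 17 had a median log2 fold change of -0.21, against -0.01 over all named genes. Among those that were not DEx genes, Ndufs7 was at -0.49 and Atp5f1d at -0.40. Without single rats the median of the 17 ranged from -0.22 to -0.19 and the number called from 0 to 9.

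Reference promoters are shown for the respiratory subunit Cox5a and for the neuronal genes Syt2 and Hcn2, whose values separated the same rats, so that the sequence before each start can be compared. Each line gives the 250 bases before the gene start in RefSeq (GRCr8), 5′ to 3′ on the strand of the gene, at chr8:66818034-66818283 (plus) for Cox5a, chr13:48736872-48737121 (plus) for Syt2 and chr7:10639458-10639707 (minus) for Hcn2. Capitals mark matches to the GC box GGGCGG on either strand, which 2 places of Cox5a, 3 of Hcn2 and 0 of Syt2 held.
Cox5a: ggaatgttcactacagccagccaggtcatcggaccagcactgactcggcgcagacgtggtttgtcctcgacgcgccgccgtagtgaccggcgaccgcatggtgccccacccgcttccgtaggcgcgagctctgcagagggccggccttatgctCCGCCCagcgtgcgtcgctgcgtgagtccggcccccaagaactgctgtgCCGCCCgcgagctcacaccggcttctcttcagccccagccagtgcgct
Syt2: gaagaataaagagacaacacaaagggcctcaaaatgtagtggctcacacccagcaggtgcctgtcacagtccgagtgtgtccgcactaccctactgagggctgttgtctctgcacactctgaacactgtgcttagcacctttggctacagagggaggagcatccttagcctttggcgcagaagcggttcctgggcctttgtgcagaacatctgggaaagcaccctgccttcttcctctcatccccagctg
Hcn2: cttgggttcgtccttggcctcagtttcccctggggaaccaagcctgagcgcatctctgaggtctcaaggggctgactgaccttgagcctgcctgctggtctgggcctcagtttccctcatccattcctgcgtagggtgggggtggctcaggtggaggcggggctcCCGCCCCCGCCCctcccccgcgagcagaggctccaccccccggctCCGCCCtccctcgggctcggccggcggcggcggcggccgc
Promoters were at hand for 36 of the 45 symbols of DEx genes. The GC box was found in 25 of these 36 (69.4%), against 58.1% of the promoters of 1698 named genes tested and 30.5% of all 33469 promoters. TATAAA was in 3 of 36 (8.33%), against 6.42% of the named genes and 12.9% of all. The core of sites for the respiratory gene regulator Nrf1, written as GCGCA and GCGC around any single base, was in 2 of 36 (5.56%), against 7.72% and 3.75%. Both were searched on either strand, and neither stood in the promoters shown.

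Olig1 and Olig2, transcription factors that specify and maintain the oligodendrocyte lineage, fell in H3.3Q5A rats after heroin. They are neighbors on chromosome 11 of rn6, at 31428357 to 31430517 and 31389513 to 31392890, both on the plus strand. Olig1 was at 13.7 to 14.1 (median 13.8) in saline and 12.9 to 13.7 (median 13.2) in heroin rats, where only heroin rat 21 reached the lowest saline rats, and it fell by 0.56 (standard error 0.140, adjusted p = 0.0440 by limma). Olig2 fell by 0.50, from 11.9 to 12.2 (median 12.02) in saline to 11.2 to 12.1 (median 11.5) in heroin rats, where rats 21 and 40 overlapped the saline range. Both were chosen after their values had been seen. Of 20 myelin and oligodendrocyte markers, 12 could be named, and all 12 were lower with a median log2 fold change of -0.57. None of them was a DEx gene, although 11 were lower with an unadjusted p under 0.05, against 419 of the 1997 named genes. The lowest adjusted p of the 12 belonged to Mobp, a protein of compact myelin (-0.65, adjusted p = 0.0509 by limma). Next was Fa2h, which makes hydroxylated myelin lipids (-0.67, adjusted p = 0.0545). The myelin proteins Mbp (-0.61) and Mag (-0.61) were close to these. Summed over the 12 markers, RPM were 11478 to 26422 (median 16367) in heroin and 20968 to 30454 (median 26212) in saline rats, and the highest heroin value was that of rat 21. Without that rat 11 of the 12 were DEx genes with a median of -0.66, in a fit that called 1533 of all 20427 genes. Without heroin rat 40 it was 4 of 12, among 475 of all genes, and without any other single rat 0. The 4 named precursor markers were at -0.23 (Gpr17 and Enpp6), -0.11 (Cspg4) and -0.05 (Bmp4), and none was a DEx gene. Of 28 genes of cholesterol and lipid synthesis 6 were named, with a median of -0.31 and no DEx gene, and Fa2h and Ugt8 among them are also myelin markers. Mvk, mevalonate kinase of the cholesterol pathway, was not on that list and fell by 0.29 (standard error 0.0646, adjusted p = 0.0327 by limma), with all heroin rats (9.92 to 10.2) below all saline rats (10.2 to 10.5).

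Most of the further downregulated genes given here were among the 12 named ones that fell with the lowest adjusted p-values. Cdc42ep2 was chosen for the size of its change. Comtd1, which encodes a protein with a catechol O-methyltransferase domain, had the lowest adjusted p of the named genes. It lies on chromosome 15 of rn6 from 2631528 to 2634640 (plus strand) and was at 10.6 to 10.9 (median 10.8) in saline and 10.2 to 10.5 (median 10.4) in heroin rats, with no overlap, heroin rat 21 included. It fell by 0.35 on the log2 scale (standard error 0.0626, adjusted p = 0.0292 by limma), and that difference ranged from -0.37 to -0.32 without single rats, where the call was lost in 5 of 15 fits. Pebp1, an abundant inhibitor of Raf kinase, fell by 0.34, and again all heroin rats (14.1 to 14.5) lay below all saline rats (14.5 to 14.9). Aqp11, an intracellular aquaporin, fell by 0.46, Ciao1, of cytosolic iron-sulfur cluster assembly, by 0.35, and Rab11fip5, an effector of recycling endosomes, by 0.33. Chac1, which degrades glutathione and responds to amino acid stress, fell by 0.48. Map1lc3b, a core protein of autophagosomes chosen after its values had been seen, fell by 0.37, with heroin rat 21 at 12.9 and the other heroin rats from 12.2 to 12.5. Cdc42ep2, an effector of the GTPase Cdc42, fell by 0.66 (standard error 0.170), and here rats 21 and 40 lay at or near the saline values.

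Among the 8 upregulated DEx genes with a name, Kdm5b, a demethylase of histone H3 lysine 4, was set apart from the saline rats in every animal. It lies on chromosome 13 of rn6 from 51384388 to 51455357 (plus strand). Its value was 11.5 to 11.8 (median 11.7) in saline and 11.9 to 12.1 (median 11.9) in heroin rats, and heroin rat 21 lay among the other heroin rats. Kdm5b rose by 0.26 on the log2 scale (standard error 0.0527, adjusted p = 0.0297 by limma), from 0.23 to 0.28 without single rats, where the call was lost in 8 of 15 fits. Phldb3, a pleckstrin homology domain protein, rose by 0.54 (standard error 0.109, adjusted p = 0.0297), from 6.72 to 7.39 (median 7.17) in saline to 7.19 to 7.95 (median 7.78) in heroin rats. It had a median of 54 reads in saline and 130 in heroin rats, without correction for depth, and the deposited scale understates changes at that depth, so that the log2 fold change was 0.999 with voom on the recovered reads. Btg1, an antiproliferative gene, rose by 0.33, with heroin rats 21 and 40 at saline values (10.2 to 10.4) and the other 6 between 10.6 and 10.9. Genes of RNA metabolism were Cnot6, a deadenylase that shortens polyA tails (0.24), Tra2b, a splicing regulator (0.22), and Ftsj3, a methyltransferase of ribosome biogenesis (0.21). Xpc, a DNA damage sensor of nucleotide excision repair, rose by 0.20 and Nasp, a chaperone of histones H3 and H4, by 0.27. Under median centring, where the median log2 fold change of all genes was -0.03 in place of 0.01, Cnot6, Tra2b, Ftsj3, Xpc and Nasp were no longer DEx genes, and 15.7% of 829 DEx genes were upregulated against 41.3% of 218.

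The RNA of Tgm2, the enzyme that writes H3Q5dop, did not differ detectably between the groups. Tgm2 was at 9.51 to 10.5 (median 10.1) in saline and 9.16 to 10.6 (median 10.2) in heroin rats, and the difference of 0.07 on the log2 scale (standard error 0.199, adjusted p = 0.88 by limma) was -0.02 without saline rat 33. Of 22 listed genes of H3.3, Tgm2 and lysine 4 methylation 5 were named, and Kdm5b was the only DEx gene, with the H3.3-binding protein Dek at 0.13 and Kdm5a and Cabin1 at 0.01. A broader list of 17 genes with symbols of chromatin remodelers and demethylases, written after values had been seen, had 15 members that were higher and 2 that were lower after heroin, with a median of 0.12 and Kdm5b as its only DEx gene. Morc2, a chromatin ATPase, had an adjusted p of 0.0374 by limma but a log2 fold change of 0.18, under the threshold for size. The largest in this list was Smarca1, of the nucleosome remodelers (0.33, adjusted p = 0.0896), and Chd7, another remodeler, was at -0.30. Among 19 splicing and RNA-binding factors picked in the same way 12 were higher and 7 lower, with a median of 0.15 and Tra2b as the only DEx gene. For both lists the background is all 1997 named genes, of which 965 were higher and 46 were DEx genes.

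**Figure D3:**
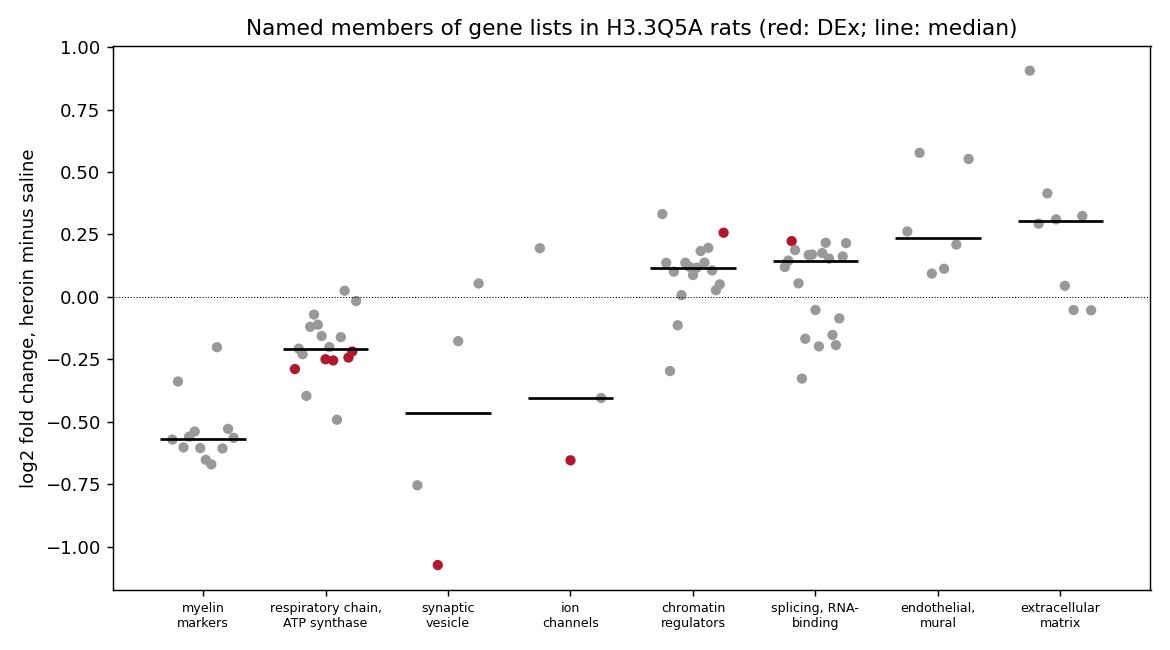
Log2 fold changes, heroin minus saline, of the named members of 8 gene lists in H3.3Q5A rats, 1 point per gene, red for DEx genes and with a line at the median. Medians run from -0.57 for 12 myelin markers to 0.30 for 8 extracellular matrix genes. Between these lie synaptic vesicle (-0.47), ion channel (-0.40), respiratory chain (-0.21), chromatin (0.12), splicing (0.15) and endothelial and mural (0.24) genes. In all, 9 of the points are DEx genes.

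Markers of other cell types in the punch held no DEx gene, and their values are given beside these results. The 3 meningeal and fibroblast markers that could be named were Col1a1 (0.91), Ptgds (0.87) and Foxc1 (0.45), none a DEx gene. All 3 were higher with an unadjusted p under 0.05 (limma), against 278 of the 1997 named genes. Their summed RPM were 456 to 4197 (median 2179) in heroin and 486 to 1677 (median 930) in saline rats. Heroin rat 21 had the lowest of the heroin values and heroin rat 25 the highest. For the myelin markers the order was reversed, with rat 21 highest (26422 RPM) and rat 25 lowest (11478 RPM) among heroin rats. Heroin rat 24 did not follow this order, at 900 RPM for the meningeal and 15960 RPM for the myelin markers. All 6 named endothelial and mural markers were higher, with a median of 0.24, no DEx gene and 214 to 477 (median 315) summed RPM against 207 to 321 (median 237). The 8 named genes of extracellular matrix had a median of 0.30 and no DEx gene. The only named astrocyte marker, Aldoc, was at -0.23 (adjusted p = 0.0654 by limma) with 1388 to 1576 RPM in heroin and 1640 to 1732 in saline rats, and the only named microglial marker, Cx3cr1, at -0.27 (adjusted p = 0.18). The 3 named pan-neuronal markers had a median of -0.17, with 884 to 1024 (median 972) RPM in heroin and 1036 to 1212 (median 1125) in saline rats, and Thy1 came nearest to the threshold (-0.27, adjusted p = 0.0544). The pituitary markers Cga, Tshb and Tbx19 were at 0.94, 0.37 and 0.37 with standard errors of 0.713, 0.471 and 0.226, at 1.93 to 27.2 summed RPM in heroin and 1.90 to 22.97 in saline rats. The part of these markers in the results above was not tested.

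Across the DEx genes, heroin rat 21 did not follow its group. For each DEx gene the midpoint between the group means was taken, and the genes on the heroin side of it were counted in each rat. In 7 heroin rats 170 to 217 of 218 genes (78.0% to 99.5%) lay on that side, and in heroin rat 21 it was 79 (36.2%). In saline rats it was 6 to 25 genes (2.75% to 11.5%). The genes were called on these rats, so the split itself is no result. Of the 46 named DEx genes, 45 were called again without heroin rat 21 and 0 without heroin rat 25, and all 46 retained their sign in each of the 15 fits without a rat. Their median log2 fold change ranged from -0.38 to -0.32 in those fits.

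**Figure D4:**
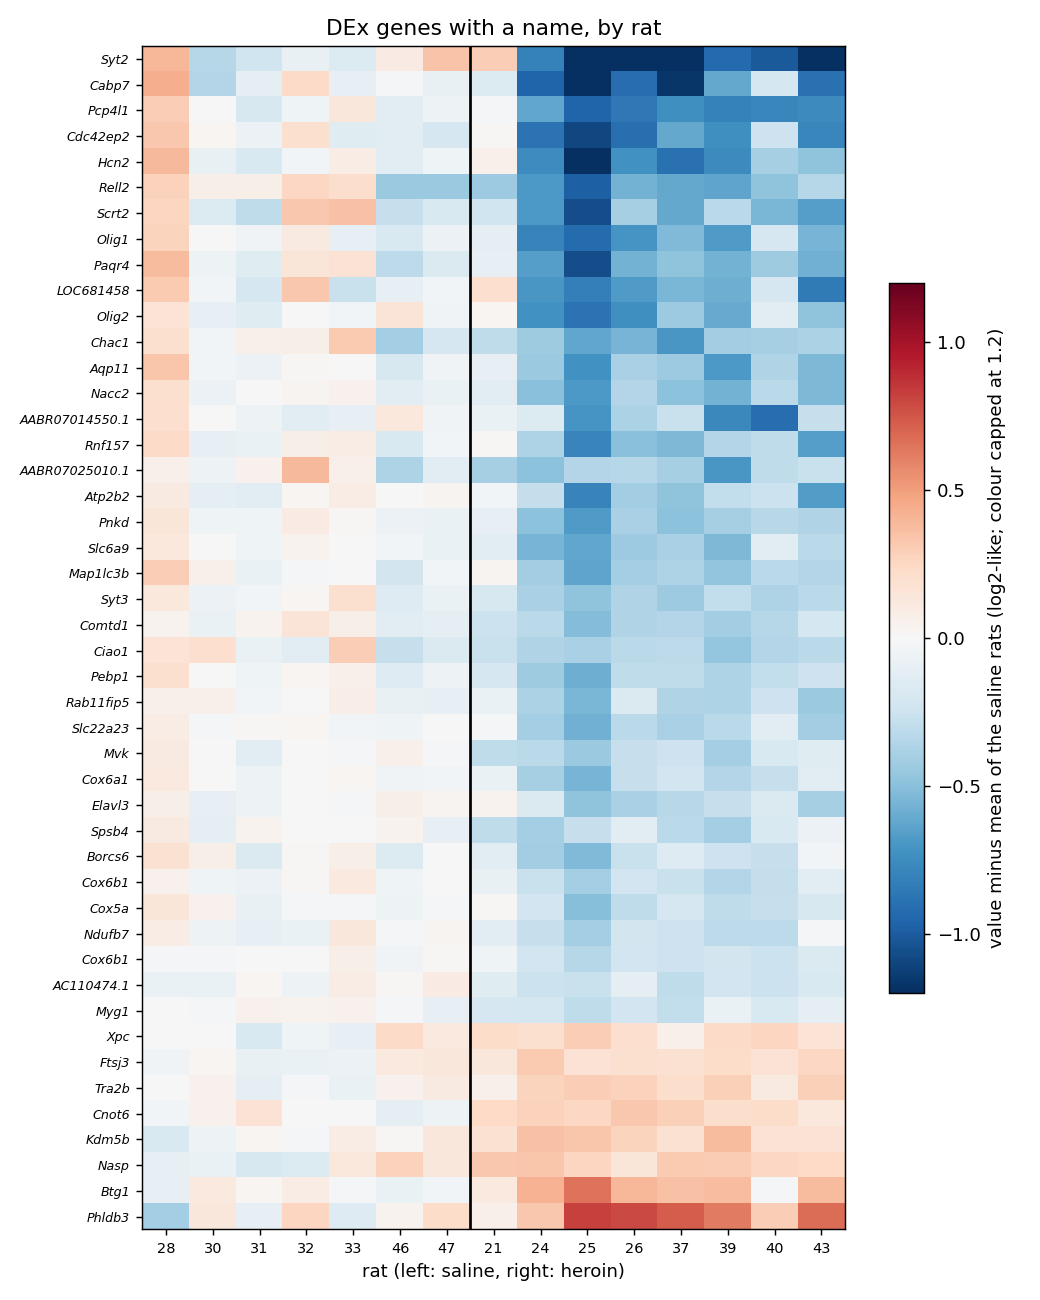
Values of the 46 named DEx genes (rows) in the 7 saline and 8 heroin H3.3Q5A rats (columns), as differences from the mean of the saline rats on the log2-like scale, capped at 1.2 for color. The column of heroin rat 21 is pale for most genes that fell, and that of heroin rat 25 is the deepest.

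The heroin difference of these genes was then set beside that in rats with an empty vector that carries GFP alone (7 saline, 8 heroin) or an H3.3 WT vector (7 saline, 7 heroin), which share no library with the H3.3Q5A rats. Over all genes, the heroin effect differed between H3.3Q5A and empty rats for 3238 genes (15.9%) and between H3.3Q5A and H3.3 WT rats for 1844 (9.03%), by interaction terms of the same limma fit at the same thresholds. Among the 218 DEx genes it was 213 against empty and 170 against H3.3 WT. Since these genes were called on the H3.3Q5A rats, which also enter the interaction, high counts follow in part from the choice. The sign of the heroin effect was opposite in empty rats for 213 of 218, against 14113 of all 20427 genes, and in H3.3 WT rats for 178 of 218, against 11310 of 20427. The heroin effect on Syt2 was 1.14 (empty) and 0.69 (H3.3 WT) on the log2 scale, so that in H3.3Q5A rats it differed by -2.21 (adjusted p = 0.00111 by limma) and -1.77 (adjusted p = 0.00466). Atp2b2 was similar, at 0.53 and 0.32, with differences of -0.94 (adjusted p = 0.000752) and -0.72 (adjusted p = 0.00194). For Kdm5b the heroin effects were -0.13 (empty) and 0.01 (H3.3 WT), and the differences were 0.39 (adjusted p = 0.00124) and 0.25 (adjusted p = 0.0290). Btg1 was at -0.39 and -0.22, with differences of 0.72 and 0.55. Cox5a was at 0.20 and 0.03, with differences of -0.45 and -0.28. For Comtd1 the heroin effects were 0.09 (empty) and -0.09 (H3.3 WT), and the difference passed the threshold against empty (-0.44, adjusted p = 0.00167) and not against H3.3 WT (-0.26, adjusted p = 0.0605). All 46 named DEx genes differed from empty and 22 of them from H3.3 WT rats. The 12 myelin markers had a median heroin effect of 0.49 in empty, 0.20 in H3.3 WT and -0.57 in H3.3Q5A rats. Markers of other tissue in the punch also changed sign between vectors. In the same order, medians were -0.66, -1.91 and 0.87 for the 3 meningeal and fibroblast markers. They were -0.11, -0.45 and 0.24 for the 6 endothelial and mural and -1.09, -0.77 and 0.37 for the 3 pituitary markers. The part of tissue content in the differences between vectors was not tested. Read totals also moved in opposite directions, with medians of 55197003 in saline and 36011865 in heroin empty rats and of 42802736 and 37049912 in H3.3 WT rats, against more reads after heroin in H3.3Q5A rats. With the log2 read total as a covariate the counts of genes with a different heroin effect were 2368 (empty) and 1488 (H3.3 WT), and the part of depth in these differences was not tested.

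**Figure D5:**
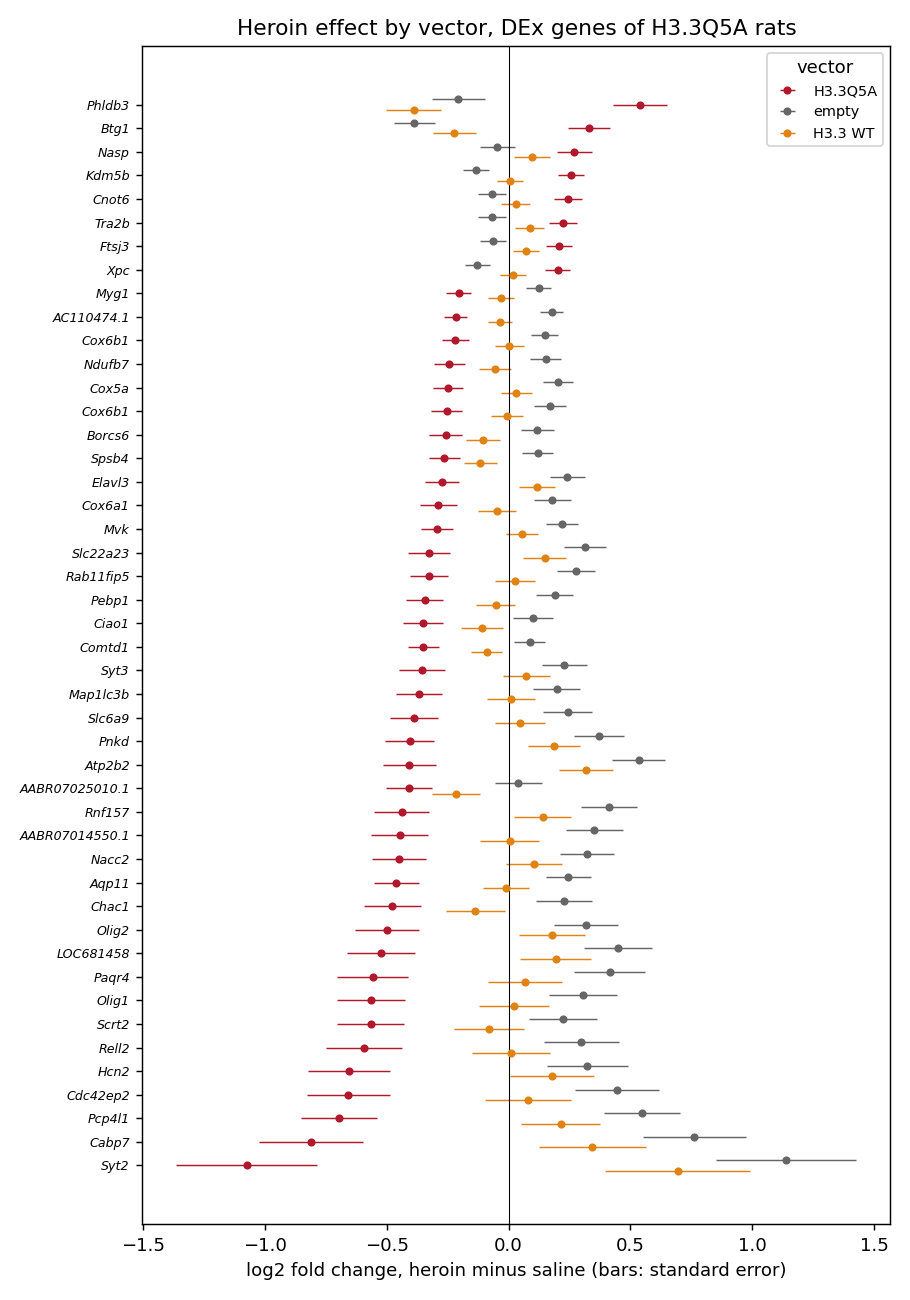
Log2 fold changes, heroin minus saline, of the 46 DEx genes of H3.3Q5A rats with a name (y axis) in rats with the H3.3Q5A (red), empty (gray) and H3.3 WT (orange) vectors, with bars for the standard error. In empty rats the effect has the opposite sign for all 46, as for Syt2 (1.14 against -1.07), and for 1532 of all 1997 named genes. The H3.3 WT rats lie between the other vectors for all of the 46 but Phldb3.

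The other lists gave few named genes. In stress and glucocorticoid response 4 were named (median 0.13), in cytokine signaling 5 (-0.08), in glutamate and GABA receptors 3 (-0.22), in nuclear long non-coding RNAs and splicing 7 (0.16) and in patterning factors 3 (-0.30), with no DEx gene in any. The largest there were Txnip, a thioredoxin inhibitor (0.26), Cntfr, a cytokine receptor (-0.18), Grm3, a metabotropic glutamate receptor (-0.52, adjusted p = 0.0585 by limma), Luc7l3, a splicing factor (0.32), and Irx1, a homeobox factor (-0.50, adjusted p = 0.0536). A single gene was named for dopamine signaling (Adcy5, an adenylyl cyclase, -0.03), immediate early genes (Ier2, -0.14), axon guidance (Cntn2, -0.42), ribosomal proteins (Rpl13, -0.02) and glutamate neurons (Slc17a8, 0.29), and none was a DEx gene. The 3 named of 35 genes of oxidative phosphorylation were Cox5a, Cox6a1 and Ndufv1, and the 1 named of 19 calcium pumps, buffers and neurofilaments was Atp2b2. Among 44 solute carriers, listed after values had been seen, Slc6a9 and Slc22a23 (-0.33) were DEx genes and the median was -0.07. No gene was named in the lists for opioid peptides and receptors, neuropeptides, dopamine, GABA and serotonin or cholinergic neurons, ependyma, interferon response and mitochondrially encoded genes, which were not analysed here.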

How the data were processed

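RNA of 15 VTA punches, 1 per rat, was analysed, with groups taken from the labels. The authors used HISAT2 2.1.0 with the rn6 genome, dropped multi-mapped reads, counted the rest on Ensembl genes with featureCounts 2.0.1 and normalized with DESeq2 2.11.40.6. The library kit does not mark strand, so overlapping genes on opposite strands cannot be told apart. The study used RUVr factors but does not state their number. The deposited values, on a log2-like scale, are variance-stabilized counts with no factor subtracted, for which the lowest value of 5.73 stands for 0 reads. Inverting the transformation gave whole numbers within 0.1 for 100% of the values and so the reads on genes, whose number limits the precision of low genes.

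Values were tested in R 4.3.3 with limma 3.58.1, in a fit of all 6 groups (44 rats) with an intensity trend, so that the groups share an estimate of the spread, with Benjamini-Hochberg adjustment over the 20427 genes. DEx genes passed 0.05 after adjustment and 0.2 in the size of the log2 fold change. Interaction contrasts came from the same fit. Library measures were compared by exact permutation over rats (scipy 1.17.1). Among 49 pairs of libraries within a group none looked like a duplicate, with a chi-square per gene of at least 9.19.

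Members and lists were chosen with earlier results of these data known, and 4 lists by symbol were written after values had been seen. Genes were named by this rule: the 12 lowest adjusted p and the 5 largest changes in each direction among DEx genes with a name, DEx genes on a list, genes central to the study or named in its text whatever their result, and the 2 largest changes in each list. Some other DEx genes with a name were picked after their values had been seen, as stated where they are given. Alternatives were other filters, scalings, covariates and thresholds, voom, and leaving out each rat. Columns of authors' comparisons were not used. Promoters are from RefSeq (GRCr8), matched by symbol. Results for a few listed genes are not reported here.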

Additional observations from a re-analysis of the deposited data

Results flagged for a closer look

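In 9 of 162 sets of values (81 genes, heroin and saline rats apart) 1 rat was separated from the rest by a gap past the critical value of Dixon's test, where chance gives about 8.1, and genes measured in the same rat are not independent. Heroin rat 21 had Pcp4l1 at 11.6 (others 10.6 to 11.0), Map1lc3b at 12.9 (others 12.2 to 12.5) and Slc17a8 at 7.27 (others 7.85 to 8.19). Saline rat 28 had Aqp11 at 10.4 (others 9.92 to 10.1) and Grin2c at 12.2 (others 11.5 to 11.8). Saline rat 31 had the pituitary markers Cga at 9.24 (others 5.95 to 7.13) and Tshb at 8.41 (others 6.48 to 6.90). Col1a1 was at 9.15 in saline rat 33 (others 10.1 to 10.8), and Tgm2 at 9.16 in heroin rat 24 (others 10.1 to 10.6).

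The heroin effect of several DEx genes in H3.3Q5A rats differed from that in control vectors by interaction terms at an adjusted p under 0.05 (limma, Benjamini-Hochberg). Differences on the log2 scale, against empty and then against H3.3 WT rats, were 0.75 and 0.93 for Phldb3, 0.39 and 0.25 for Kdm5b, 0.72 and 0.55 for Btg1, -1.24 and -0.91 for Pcp4l1, -0.45 and -0.28 for Cox5a, -0.98 and -0.83 for Hcn2, -1.10 and -0.74 for Cdc42ep2, -1.57 and -1.15 for Cabp7, -0.94 and -0.72 for Atp2b2 and -2.21 and -1.77 for Syt2. Other named DEx genes passed against empty rats alone, among them Cnot6 (0.31), Nasp (0.32), Cox6a1 (-0.47) and Comtd1 (-0.44).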

How the results depend on the processing

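The number of DEx genes, 218 as reported, moved under most alternatives. It was 114 with the gene filter set on the 44 mapped rats, 73 with no gene filter, 509 over genes above the median level, 829 with median centring, 552 on the 15 rats alone, 134 with no intensity trend, 1697 with array weights, 1608 with 1 residual factor, 2454 with 3, 112 with rat number as covariate, 0 with the log2 read total as covariate (3990 genes at an unadjusted p under 0.05), 1230 at an FDR of 0.1 and 525 with the conflicting library as saline H3.3Q5A. It was 296 with quantile normalization, 180 with voom and 252 with no fold-change threshold. Without single rats it ranged from 0 to 1533, with 3271 to 5119 genes at an unadjusted p under 0.05. The number of genes whose heroin effect differed from empty rats, 3238, was 4998 with array weights and 5348 with 3 residual factors and 2429 to 4132 without single rats. Against H3.3 WT rats, 1844 became 3089 with median centring, 2934 with 1 and 3805 with 3 residual factors and 1302 to 2580 without single rats. The cause was not tested. Signs turned for small values only. Adcy5 was at 0.01 with quantile normalization (0.0127), at 0.00219 without heroin rat 21 and at 0.00675 without saline rat 33 (-0.0528 to 0.00675 over all single rats), Rpl13 was at 0.00794 with the read total as covariate, and Tgm2 was at -0.0227 without saline rat 33 (-0.0227 to 0.212 over all single rats). No paired analysis was possible because the heroin and saline H3.3Q5A groups share no rat numbers. The number 21 stands on a heroin empty library as well as on the heroin H3.3Q5A library, with 34064367 and 43043912 reads on genes. Such repeats are not limited to it, since the number 13 stands on a saline empty and a heroin empty library. Duplicates were sought only within the H3.3Q5A groups. Depth limits calls for genes with few reads.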

Other observations

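The saline library with conflicting vector labels held 25733715 reads on genes. Of the 218 DEx genes, 72 (33.03%) lay on the heroin side of the midpoint between the H3.3Q5A groups in this library.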
